A study of Mus musculus with 12 samples.

Results

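The E2F transcription factors and cyclin E form the switch that starts DNA replication. The genes described here are the 8 E2F genes, E2f1 to E2f8, and the 2 cyclin E genes, Ccne1 and Ccne2, taken by symbol from 2 deposited comparison tables. These 10 genes stood among 45706 listed for mouse blastocysts and among 13009 listed for mouse embryonic stem (ES) cells. The set was drawn up around E2f2, which was picked for its change in the blastocyst table, so the blastocyst values of E2f2 are a description and carry no test. E2f2 was chosen by its change in that table, and the 9 others are its family by name.

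The study removed Dis3l, which codes for the nuclease subunit of the cytoplasmic exosome, the complex that shortens RNA from its 3′ end. Groups of 3 samples each were Dis3L KO blastocysts, Dis3L WT blastocysts, Dis3L KO ES cells and Dis3L WT ES cells, 12 samples in all. The labels give no strain, sex, allele design or treatment beyond genotype, and do not say whether embryos shared a litter or whether ES samples were separate lines, so p-values in ES cells measure only the spread between these samples, which may be technical. Embryos were taken from superovulated females 96 h after the hCG injection, and each blastocyst library was made from 1 embryo by Tn5 tagmentation of cDNA. ES lines were derived from blastocyst outgrowths and kept with LIF on inactivated mouse embryonic fibroblasts, and the labels state no removal of these feeders before lysis. The ES libraries were stranded and depleted of ribosomal RNA.

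In mammalian cells E2F proteins bind promoters of replication genes, mostly as dimers with a DP partner. The activators E2F1, E2F2 and E2F3 are held back by the retinoblastoma protein until cyclin-dependent kinases phosphorylate it. E2F4 and E2F5 act mainly as repressors with the retinoblastoma relatives p107 and p130, E2F6 represses with Polycomb proteins, and the atypical E2F7 and E2F8 bind without DP and repress activator targets late in S phase. Cyclin E partners CDK2 at the entry to S phase and is itself an E2F target. In mice, E2F7, E2F8 and cyclin E are known for their roles in the endoreplication of trophoblast giant cells, which arise from the outer layer of the blastocyst. ES cells cycle fast and keep cyclin E activity high through the cycle.

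Neither table names the direction of its comparison. A positive log2 fold change below means a higher level on what is called the positive side, and the other side is called the negative side. In these tables the authors' mean for a gene adds up whole, normalised reads over the count columns of the fit, and solving it gave the reads in each column: 6 columns in blastocysts, 3 on each side, and 4 in ES cells, 2 on each side, although the labels list 6 ES samples. Columns were placed on a side by the fold changes and were not matched to samples or genotypes; they are called positive and negative columns after their side. Size factors, the relative depths of the columns, ran from 0.695 to 1.62 in blastocysts and from 0.759 to 1.25 in ES cells. Dis3l itself had 11.2 and 10.5 normalised reads in the positive columns against 37.1 and 37.7 in the negative columns in ES cells. In blastocysts it had 18.6, 8.12 and 0 against 6.19, 4.46 and 11.5, which overlap, so that gene does not show which blastocyst side is the knockout.

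Since E2F genes are themselves bound by E2F proteins, the start regions of the members were searched for E2F motifs, and the E2f2 region is shown first because E2f2 has the largest blastocyst difference of the members. RefSeq start windows on GRCm38.p6 (250 bases before and 50 bases after the start) were held for 7 of the 10 members; E2f4, E2f5 and Ccne2 had none. The 250 bases before the E2f2 start lie at chr4:136172024-136172273 on the plus strand, with the CCAAT box, the letters bound by NF-Y, in capitals:

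E2f2 upstream: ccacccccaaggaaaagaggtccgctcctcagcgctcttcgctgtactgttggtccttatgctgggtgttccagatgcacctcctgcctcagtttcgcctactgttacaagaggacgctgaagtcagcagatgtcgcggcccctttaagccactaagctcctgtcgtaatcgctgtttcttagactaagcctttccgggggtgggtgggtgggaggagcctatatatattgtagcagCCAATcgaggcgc

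The E2F motif was searched on both strands in 4 forms of 8 letters, TTTCCCGC, TTTCGCGC, TTTGCCGC and TTTGGCGC, and in the same forms without the first T, so that each 8-letter match is also a 7-letter match. Of 32851 start windows in the RefSeq table, 2.26% held an 8-letter match and 9.57% a 7-letter match, and 37.4% held CCAAT. Among the members, E2f2, E2f3 and E2f7 had an 8-letter match, and E2f8 joined them with 7 letters. E2f2 and E2f3 each have another RefSeq start window, in which no match of either length was found. The matches are shown in capitals within 30 bases of the gene's strand:

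E2f2 (chr4:136172294-136172323, plus strand): cgaatttggcggcatatagTTTGGCGCtaa

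E2f3 (chr13:29986056-29986085, minus strand): ttgaaaagccgGCGGGAAAtctgagtttcg

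E2f7 (chr10:110745230-110745259, plus strand): cccgcgtccccGCGGGAAAcgctcccgcgt

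E2f8 (chr7:48881689-48881718, minus strand): agaggcgcggaTTGGCGCgcggggccccgg

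The E2f2 match lies 40 bases downstream of the RefSeq start. That of E2f3 lies 11 bases upstream, that of E2f7 198 bases upstream and that of E2f8 111 bases upstream, and the E2f3 and E2f7 matches read on the opposite strand. No 7-letter match was found in the windows of E2f1, E2f6 and Ccne1. The E2f1 window, chr2:154569377-154569676 on the minus strand, lies within the deposited gene, chr2:154559407-154569892. Bases upstream of the deposited E2f1 gene were thus not searched. The E2f2 match lies before the deposited start of that gene, 136172394. A match is a string of letters and does not show binding.

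E2f2 (ENSMUSG00000018983, chr4:136172394-136196057 in the deposited table, GRCm38), the activator E2F that was used to choose the set, was almost without reads on the positive side of the blastocyst comparison. Its reads were 2, 0 and 0 in the positive columns and 84, 50 and 32 in the negative columns, or 1.43, 0 and 0 against 52.0, 55.7 and 46.0 normalised reads. The negative columns lay close together, and the sides do not overlap. Over the columns the negative side was 84.4-fold higher, with an exact 95% interval of 23.0 to 702 if each read is 1 count and of 14.7 to 3371 if 2 reads are 1 pair; both cover counting error only. The E2f2 log2 fold change in the authors' deposited table was −6.51 ± 1.53 (SE), with an adjusted p of 0.0282 (Wald test of DESeq2). Left out in turn, 5 of the columns gave a log2 ratio between −6.82 and −6.17, and without positive column 1 no read was left on that side.

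**Figure D1:**
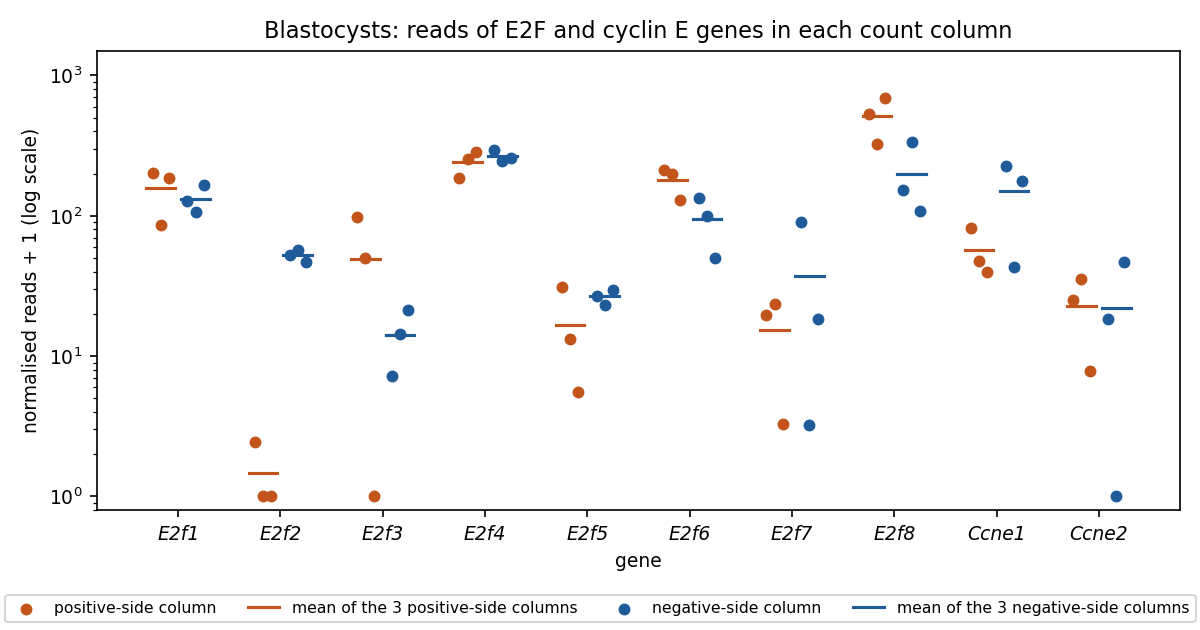
Normalised reads plus 1 (vertical log axis) of the 10 genes in each of the 6 blastocyst count columns; points are columns, bars are the mean of the 3 columns of a side. E2f2, which was picked for its difference here, sits at 0 to 1.43 reads on the positive side and at 46.0 to 55.7 on the negative side. The sides overlap for the 9 other genes.

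E2f2 was the only member called in blastocysts, where the authors' adjusted p was under 0.05 for 0.0986% of 15209 genes (15 genes), 0.0855% on the negative side. Because E2f2 was chosen for this contrast, nothing is read from that count. Nor is anything read from the sides of E2f2, the only ones of the 10 that did not overlap. Among 3332 genes with a mean of 20 to 80 that share was 11.9%. E2f1, E2f4, E2f6, E2f8 and Ccne1 have means above that range. Of the 9 other members, 5 had a positive and 4 a negative log2 fold change, and their median was 0.06 against −0.04 over all tested genes. At an unadjusted p under 0.05 stood E2f8 on the positive side and, besides E2f2, Ccne1 on the negative side; across all genes with a p-value the share was 5.46%, 2.36% positive and 3.1% negative.

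The activator E2f3 (chr13:29906575-29985668) was spread widely among the blastocyst columns. It had 97.1, 48.7 and 0 normalised reads in the positive columns and 6.19, 13.4 and 20.1 in the negative columns. The authors' deposited table gave a log2 fold change of 1.892 ± 1.338 (SE) and an adjusted p of 0.811. Without positive column 1 the log2 ratio of the recovered reads was 0.88 in place of 1.88. Positive column 3 had no E2f3 read, while the others of that side had more than any negative column.

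E2f1 (chr2:154559407-154569892), the activator best known for also driving apoptosis genes, was present in all 6 blastocyst columns. Its normalised reads were 199.9, 85.3 and 185.1 in the positive columns and 126.2, 104.8 and 164.0 in the negative columns. The E2f1 log2 fold change of the authors' deposited table was 0.25 ± 0.53 (SE), with a 95% interval of −0.78 to 1.29. The columns of the positive side thus differed more from each other than the sides did.

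Of the E2Fs that work mainly as repressors, E2f4 (chr8:105297663-105305369), the partner of p107 and p130 in resting cells, was the most even. In blastocysts it had 184.2, 251.7 and 283.4 normalised reads in the positive columns and 291.9, 245.3 and 256.1 in the negative columns. Its log2 fold change in the authors' deposited table was −0.14 with a 95% interval of −0.91 to 0.62. E2f5 (chr3:14578641-14606309), its closest relative, had 29.98, 12.2 and 4.57 normalised reads against 26.0, 22.3 and 28.8. The 3 negative columns of E2f5 lay close together, but one positive column was higher than all of them; without it the log2 ratio of the recovered reads was −1.62 in place of −0.72.

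E2f6 (chr12:16810965-16826743), the Polycomb-associated repressor, had 212.7, 196.9 and 128.0 normalised reads in the positive columns and 133.6, 98.1 and 48.9 in the negative columns. Only positive column 3 was below the highest negative column. In the authors' deposited table the E2f6 log2 fold change was 0.93 ± 0.55 (SE), with an adjusted p of 0.811, so it was not called.

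The atypical repressor E2f8 (chr7:48866429-48881596) was high in blastocysts, and 2 of its 3 positive columns lay above every negative column. Its normalised reads were 529.7, 322.7 and 692.5 in the positive columns and 152.1, 332.2 and 106.5 in the negative columns. Negative column 2 was above the lowest positive column, and the other negative columns were well below it. The log2 fold change of E2f8 in the authors' deposited table was 1.39 ± 0.48 (SE), with an unadjusted p of 0.00368 in the Wald test of DESeq2 and an adjusted p of 0.410. The log2 ratio of its recovered reads was 1.99 without negative column 2 and between 1.09 and 1.99 with each column left out in turn.

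E2f7 (chr10:110745439-110787384), which works with E2f8, did not follow it. Its normalised reads were 18.6, 22.3 and 2.29 in the positive columns and 89.1, 2.23 and 17.3 in the negative columns. One negative column decided the difference: in the authors' deposited table the E2f7 log2 fold change was −1.33 ± 1.344 (SE), and without negative column 1 the log2 ratio of the recovered reads was 0.56.

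Ccne1 (chr7:38097984-38107534), the cyclin E1 gene, had 81.4, 46.7 and 38.9 normalised reads in the positive columns and 227.0, 42.4 and 175.5 in the negative columns. Negative columns 1 and 3 were above every positive column, and negative column 2 was among them. The Ccne1 log2 fold change in the authors' deposited table was −1.41 ± 0.70 (SE), with an unadjusted p of 0.0426 in the Wald test of DESeq2 and an adjusted p of 0.772. Ccne2 (chr4:11191351-11204779), the cyclin E2 gene, had 24.3, 34.5 and 6.86 against 17.3, 0 and 46.0 normalised reads. The sides of Ccne2 overlapped fully, and its log2 fold change in the authors' deposited table was 0.06 ± 1.44 (SE), with an interval of −2.77 to 2.89.

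E2f8 and Ccne1 were thus split the same way within the negative side, in opposite directions: columns 1 and 3 had little E2f8 and much Ccne1, and column 2 had the reverse. The pathway lists described below had no common split: of their 75 solved genes, negative column 2 was the lowest of the 3 for 30 and the highest for 23. Cdk1, the mitotic kinase, was among the former and had 440.3, 167.2 and 664.6 normalised reads in negative columns 1, 2 and 3, and Dut, the enzyme that clears dUTP, had 405.7, 176.2 and 656.0. Orc1, a subunit of the origin recognition complex, was among the latter with 25.98, 155.0 and 92.1. Column 2 was lowest for 7 and highest for 1 of 11 licensing genes, for 9 and 4 of 16 synthesis genes and for 5 and 0 of 6 turnover genes. It was lowest for 2 and highest for 6 of 9 genes of the E2F6 complex, for 0 and 3 of 5 MuvB genes and for 1 and 3 of 5 cyclins and kinases. The other lists were nearly even. The summed pluripotency markers were higher in columns 1 and 3, at 2974 and 3605 against 1913, mostly through Dppa3, which had 953.7, 33.4 and 1142. Without Dppa3 the sums were 2020, 1880 and 2463. Sox2, Esrrb, Fgf4 and Zfp42 were highest in column 2, and the other solved markers were not. Tfcp2l1, with a mean of 1620, was not solved and is in none of these sums. The part of these markers in the differences was not tested. In bulk embryos, fewer cells of a type and less RNA per cell cannot be told apart.

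**Figure D2:**
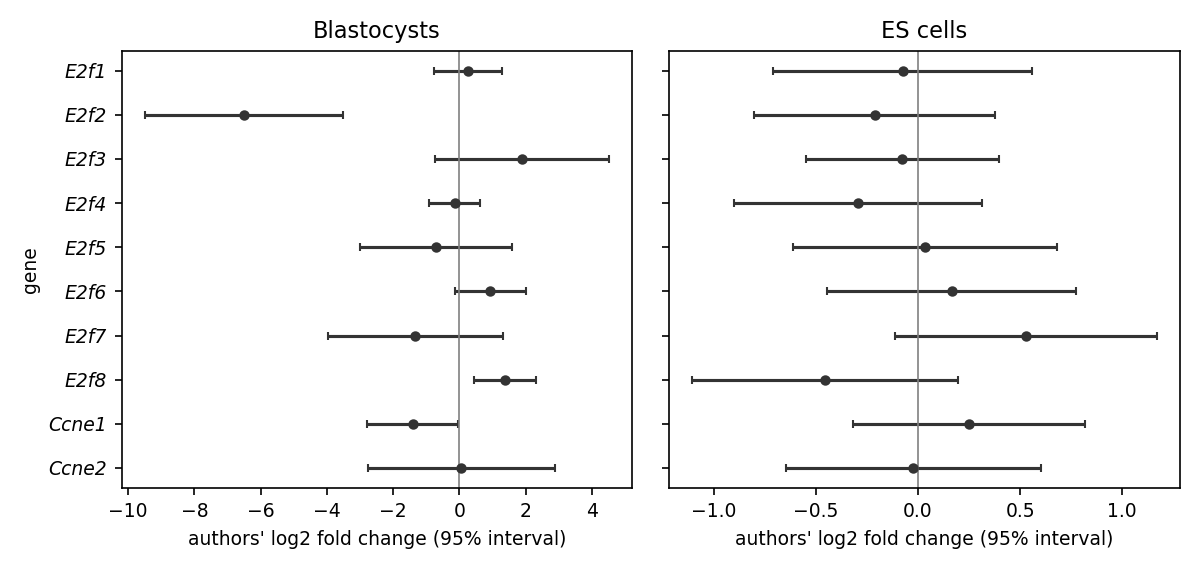
The authors' log2 fold change of each gene (points) with its 95% interval (bars) in blastocysts and in ES cells; the horizontal scales differ, and the ES estimates appear shrunken. In blastocysts the intervals, which are not adjusted for the number of genes, leave out 0 for E2f8 and Ccne1, though neither was called. That of E2f2 does too, but E2f2 was picked for this change. In ES cells no interval leaves out 0.

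In ES cells no E2F or cyclin E gene was called, against 0.261% of the 10739 genes with an adjusted p (28 genes), 0.214% on the negative side. E2f2 has no adjusted p there, and the 9 others had one of 0.9996 in the authors' deposited table. None had an unadjusted p under 0.05, a share that was 4.83% over all genes with a p-value. The ES fold changes appear shrunken towards 0, as no standard error of the table exceeded 0.33, so sizes are not comparable between the tables, and the ratio of recovered reads is given beside them. The columns of the sides did not overlap for 6 of the 10 members, E2f2, E2f3, E2f4, E2f7, E2f8 and Ccne1, and for 40.5% of 7207 genes with a mean of 8 to 100, so with 2 columns a side that is common.

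The activators were led by E2f3 in ES cells. E2f3 had 214.0 and 198.8 normalised reads in the positive columns and 218.7 and 221.3 in the negative columns, a difference smaller than that within the positive side. E2f1 had 44.7 and 32.9 against 53.2 and 31.9, with full overlap. E2f2 was low in every column, with 9 and 4 reads in the positive columns and 9 and 13 in the negative columns, or 7.19 and 5.27 against 8.56 and 12.6 normalised reads. The E2f2 log2 ratio of recovered reads was −0.76, and its log2 fold change in the authors' deposited table was −0.21 ± 0.30 (SE), with an unadjusted p of 0.480 in the Wald test of DESeq2. Reads of E2f2 were present on both sides, unlike the near absence on one side in blastocysts. Whether the difference itself changed between the materials was not tested.

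The atypical repressors E2f7 and E2f8 had the largest ES fold changes of the 10 members, on opposite sides of 0. E2f7 had 56.7 and 35.6 normalised reads in the positive columns and 23.8 and 26.1 in the negative columns, a log2 ratio of 0.89. E2f8 had 11.2 and 27.7 against 28.5 and 42.5, a log2 ratio of −0.87 that ran from −1.67 to −0.36 without each column in turn, lowest without positive column 2 and highest without positive column 1. Their log2 fold changes in the authors' deposited table were 0.53 and −0.45 with standard errors of 0.33 each, and unadjusted p of 0.107 and 0.171 in the Wald test of DESeq2. For E2f8 the signs in blastocysts and ES cells differ, but neither table names its direction. Dis3l was lower on the positive side in ES cells, but its sides overlapped in blastocysts, so opposite effects cannot be read.

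E2f4 had 52.7 and 42.1 normalised reads in the positive columns of the ES comparison and 66.6 and 61.8 in the negative columns. E2f5 had 35.1 and 36.9 against 47.5 and 21.3, where the spread on one side was larger than the difference. E2f6 had 51.9 and 63.2 against 52.3 and 44.5, with overlap. The log2 fold changes of these 3 genes in the authors' deposited table were −0.29, 0.04 and 0.16.

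Ccne1 had 85.4 and 98.8 normalised reads in the positive columns in ES cells and 75.1 and 70.5 in the negative columns. Its log2 fold change in the authors' deposited table was 0.25 ± 0.29 (SE), with an interval of −0.32 to 0.82. Ccne2 was the most even member, with 43.9 and 42.1 against 43.7 and 44.5.

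**Figure D3:**
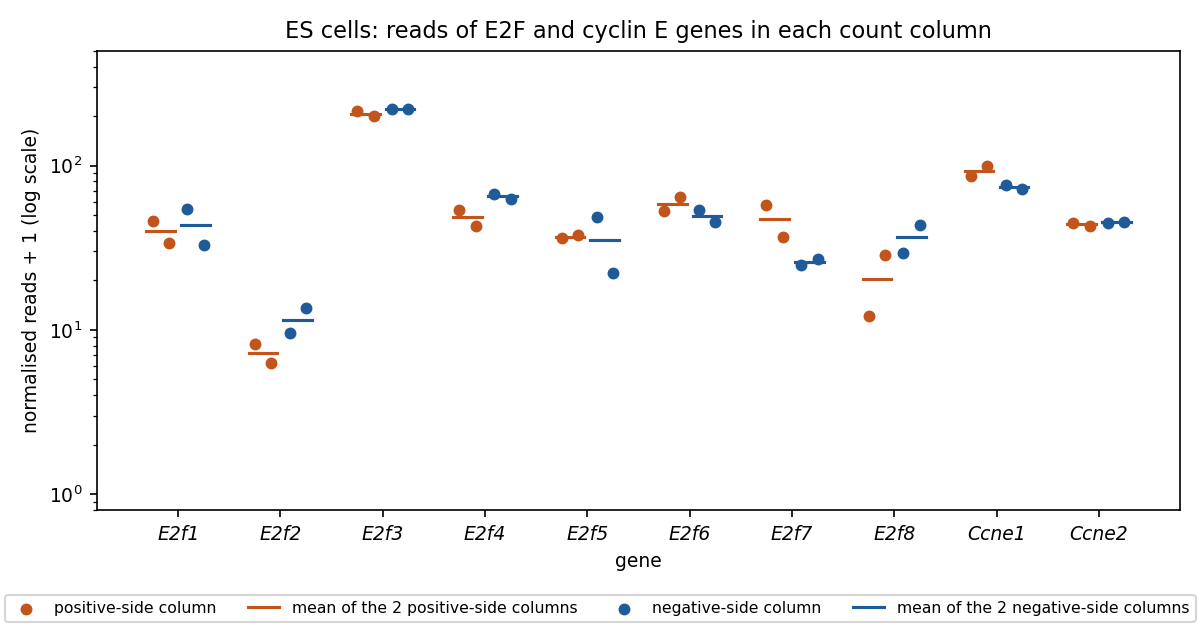
Normalised reads plus 1 (vertical log axis) of the 10 genes in each of the 4 ES cell count columns; points are columns, bars are the mean of the 2 columns of a side. E2f2 is the lowest gene at 5.27 to 12.6 reads, and Ccne2 varies least, from 42.1 to 44.5.

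Per kilobase of the longest annotated transcript, the level order of the members differed between the materials, which were prepared with different library chemistry. In blastocysts E2f4 led with a mean of 126.5 normalised counts per kb, followed by E2f8 with 96.4, E2f1 with 52.3, Ccne1 with 51.0 and E2f6 with 45.2. E2f5 with 11.6, Ccne2 with 7.15, E2f3 with 6.07, E2f2 with 5.46 and E2f7 with 4.62 formed a lower group. The step from E2f6 to E2f5 was the only gap between neighbours in this order that was larger than the larger SD of the pair over the 6 columns.

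In ES cells E2f3 and Ccne1 led with 41.8 and 41.2 normalised counts per kb and did not differ beyond their spread over the 4 columns. E2f4 followed with 28.0, then E2f5 with 19.8, E2f6 with 17.6, E2f1 with 14.8 and Ccne2 with 14.5. E2f8 with 7.44, E2f7 with 6.49 and E2f2 with 1.77 were lowest. Gaps beyond the larger SD of the pair lay below Ccne1, below E2f4, below Ccne2 and below E2f7. In blastocysts this order depended on the side. On the positive side E2f8 led with 139.5 per kb before E2f4 with 120.3, and on the negative side E2f4 led with 132.7 before Ccne1 with 74.1 and E2f8 with 53.4. E2f2 had 0.10 per kb on the positive side, the lowest of the 10, and 10.8 on the negative side, above E2f3, E2f7 and Ccne2, whereas in ES cells it was the lowest on both sides. Over all columns E2f8 and E2f3 held places far apart: E2f8 had rank 2 in blastocysts and rank 8 in ES cells, and E2f3 had ranks 8 and 1.

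**Figure D4:**
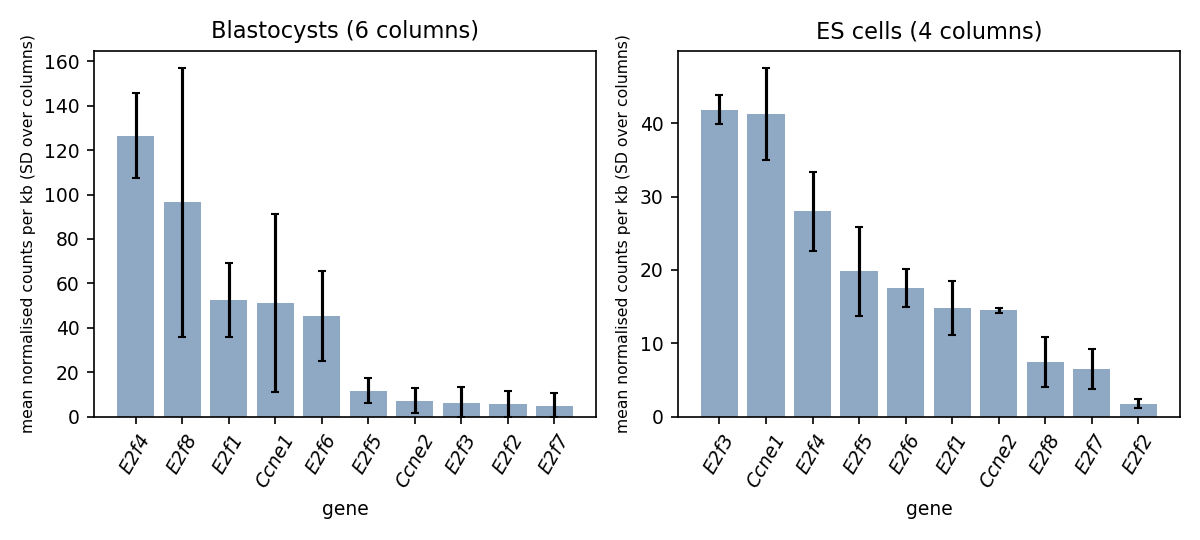
Mean normalised counts per kb of the longest transcript (bars) with the SD over count columns (lines, cut at 0) for the 10 genes, ordered by level, in blastocysts and in ES cells; the vertical scales differ. E2f4 and E2f8 lead in blastocysts and E2f3 and Ccne1 in ES cells, and over all columns E2f2 and E2f7 are near the bottom of both.

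Some reads could not be assigned with certainty. Ccne2, E2f3, E2f5, E2f7 and E2f8 overlap a gene on the opposite strand, and whether the counting used strand is not given in the sources used here. For Ccne2 that gene is Ints8 and for E2f5 it is 1810022K09Rik, both protein-coding.

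The genes that neighbour E2f2 on chromosome 4 showed no call of their own. On its left lie Rpl11, Gm13009 and Id3, and on its right Asap3, Tcea3 and Zfp46. Id3, the nearest gene on the left and a helix-loop-helix inhibitor, had a log2 fold change of −1.20 ± 1.33 (SE) and an adjusted p of 0.877 in the authors' deposited table. For Rpl11, a ribosomal protein gene with a mean of 867 normalised counts, the log2 fold change in the authors' deposited table was −0.34 ± 0.28 (SE). The other 4 neighbours had means of 2.94 to 17.3.

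The blastocyst genes whose reads followed E2f2 most closely over the 6 columns were Ace, Zcchc24 and Rassf1, with a Pearson's r of log2(normalised reads + 1) of 0.9799, 0.979 and 0.972 among 3331 genes with a mean of 20 to 80. In all, 31 genes had an r over 0.9, and the 6 columns share their libraries and depth. As E2f2 was chosen for its difference between the sides, a high r mainly marks genes that differ between the same sides. Nothing more is read from it. Ace, the angiotensin-converting enzyme, had 0 reads in all 3 positive columns and 92, 26 and 32 in the others, and Zcchc24 had 0 against 114, 28 and 26. Both were themselves called in the authors' deposited table, with log2 fold changes of −7.99 and −8.07. Their adjusted p were 0.00449 and 0.00383 in the Wald test of DESeq2. Rassf1 had a like pattern at a smaller scale, with 54.3, 54.8 and 57.1 normalised reads against 98.3, 91.4 and 87.8.

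Other genes of the pathway were taken from 11 lists, which hold 103 genes. None was called in either table. Counts of signs in these lists are given below without the share of all genes below 0, which was not counted. In blastocysts 11.46% of the 96 genes with a p-value had an unadjusted p under 0.05, 1 on the positive and 10 on the negative side, against 5.46% of all genes, which include many with lower means. In ES cells 7.216% of 97 did, 2 on the positive and 5 on the negative side, against 4.83% of all genes (1.87% positive and 2.96% negative).

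**Figure D5:**
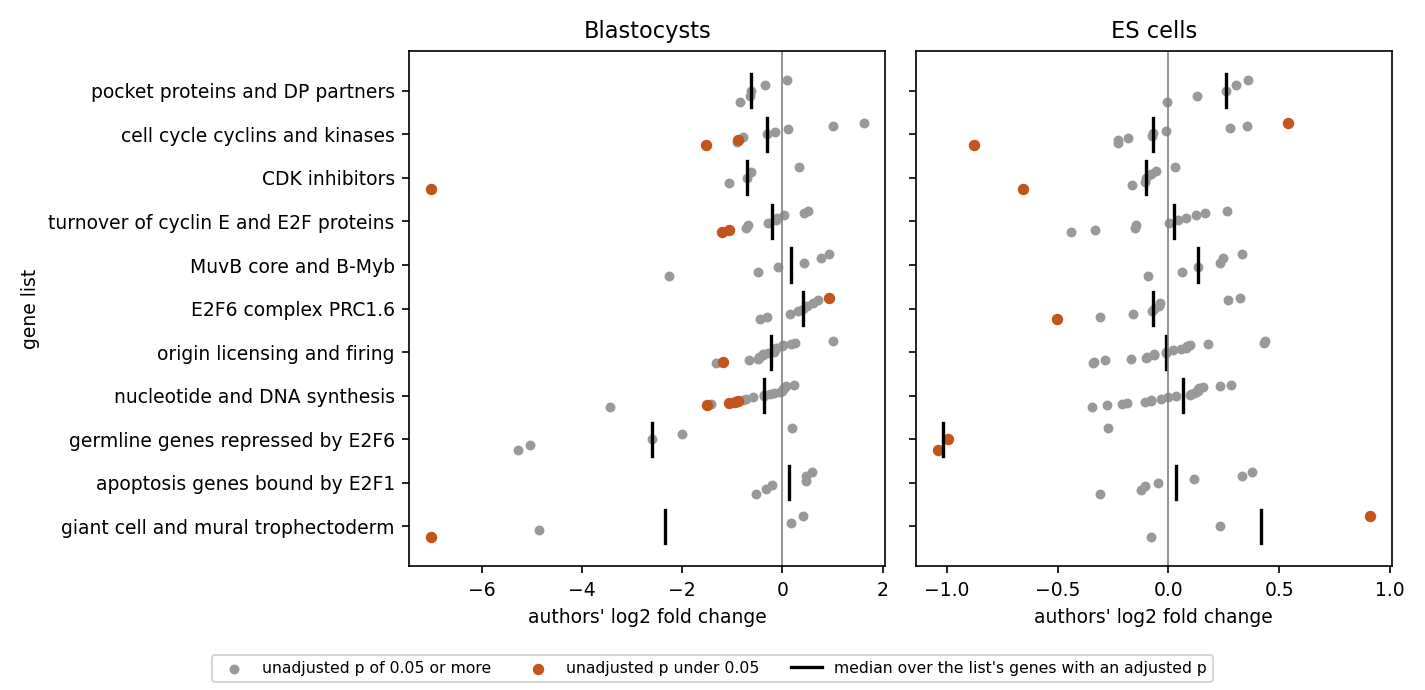
The authors' log2 fold change (horizontal axis) of each gene of the 11 lists with a p-value (points, orange where the unadjusted p was under 0.05) and the list's median over genes with an adjusted p (vertical bars), in blastocysts and in ES cells; the horizontal scales differ. In blastocysts 10 of the 11 genes in orange lie left of 0; Cdkn1c stands in 2 of the lists.

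The pocket proteins, which bind E2Fs, and the DP partners had no gene with an unadjusted p under 0.05 in either table. Tfdp1, the main DP gene, was the highest of the 5 per length in both, with 109.6 normalised counts per kb in blastocysts and 78.8 in ES cells. Rb1, the retinoblastoma gene, was scarce in blastocysts, with 18.6, 4.06 and 0 normalised reads in the positive columns and 34.6, 0 and 0 in the negative columns. In ES cells Rb1 had 137.3 and 123.8 against 111.2 and 78.3. The p107 gene Rbl1 had 77.1, 115.7 and 180.5 normalised reads against 268.4, 104.8 and 100.7 in blastocysts, with overlap. The list median was −0.62 in blastocysts and 0.26 in ES cells, against −0.04 and −0.00011 over all tested genes.

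Among cell cycle cyclins and kinases, Cdk1 stood out in blastocysts, with 198.5, 115.7 and 128.0 normalised reads in the positive columns and 440.3, 167.2 and 664.6 in the negative columns. Its log2 fold change in the authors' deposited table was −1.52 ± 0.51 (SE), with an unadjusted p of 0.00268 in the Wald test of DESeq2 and an adjusted p of 0.367. Ccnb1, its cyclin partner, had −0.89 (SE 0.40) in the authors' deposited table and an adjusted p of 0.738. These were the 2 of 9 genes of the list with an unadjusted p under 0.05, and the list median was −0.31 there and −0.07 in ES cells.

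In ES cells the D-type cyclins, which start the phosphorylation of the retinoblastoma protein, gave 1 gene in each direction. Ccnd3 had 63.9 and 59.3 normalised reads in the positive columns and 115.0 and 162.3 in the negative columns, and Ccnd1 had 395.2 and 439.8 against 312.8 and 224.2. The log2 fold changes in the authors' deposited table were −0.88 for Ccnd3 and 0.54 for Ccnd1, with adjusted p of 0.215 and 0.694. The columns of the sides did not overlap for either gene, as for 40.5% of 7207 genes with a mean of 8 to 100, below the means of these 2.

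Among inhibitors of cyclin-dependent kinases, Cdkn1c, the p57 gene needed for trophoblast giant cells to stop mitosis, had 0 reads in all 3 positive columns of blastocysts and 0, 32 and 22 in the negative columns. Since negative column 1 also had none, the sides overlap, and its adjusted p in the authors' deposited table was 0.414. Cdkn1a, the p21 gene, had 62.3 and 60.6 normalised reads against 102.7 and 122.7 in ES cells, a log2 fold change of −0.66 (SE 0.29) in the authors' deposited table and an adjusted p of 0.693. In blastocysts Cdkn1a had 32.8, 79.2 and 6.86 against 77.9, 64.7 and 40.3 normalised reads, with overlap. The medians of these inhibitors were −0.71 in blastocysts and −0.10 in ES cells.

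Of the genes for turnover of cyclin E and E2F proteins, Ccnf, whose product targets activator E2Fs for degradation, and Cdc20, an activator of the anaphase-promoting complex, had an unadjusted p under 0.05 in blastocysts. Their log2 fold changes in the authors' deposited table were −1.21 ± 0.43 (SE) and −1.06 ± 0.38 (SE), both with an adjusted p of 0.476. These were 2 of 10 genes, and in ES cells 0 of the 10 had an unadjusted p under 0.05; the medians were −0.20 and 0.02. Of the MuvB core and B-Myb, which take over mitotic genes from repressor E2Fs, 0 of 6 did in either table, with medians of 0.17 and 0.14; Mybl2, the B-Myb gene, was the highest of them with 323 normalised counts per kb in blastocysts and 358 in ES cells.

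The Polycomb complex PRC1.6 contains E2F6. Rnf2, the ubiquitin ligase of the complex, had an unadjusted p under 0.05 in blastocysts, but neither it nor E2f6 was called. Rnf2 had 374.1, 334.9 and 575.9 normalised reads against 253.6, 182.8 and 235.9, with no overlap. That was so for 11.9% of 3332 genes with a mean of 20 to 80, which is below the mean of Rnf2. The Rnf2 log2 fold change in the authors' deposited table was 0.93 (SE 0.39), with an adjusted p of 0.648 in the Wald test of DESeq2. The list had 7 of 9 log2 fold changes above 0 and a median of 0.41. In ES cells 7 of the 9 were below 0 and the median was −0.07; L3mbtl2 was the 1 with an unadjusted p under 0.05, at a log2 fold change of −0.50 in the authors' deposited table and an adjusted p of 0.700.

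Of germline genes that E2F6 is known to repress, 3 had a p-value in ES cells and 2 of them, Stag3 and Smc1b, an unadjusted p under 0.05, both lower on the positive side. The median was −1.02 over the 2 genes with an adjusted p in ES cells and −2.60 in blastocysts, where 0 of 5 did and 4 of the 5 had a mean under 50. Stag3, a meiotic cohesin subunit, had 70.3 and 40.8 normalised reads in the positive columns and 114.1 and 195.2 in the negative columns. Smc1b, another meiotic cohesin subunit, had 13.6 and 28.97 against 48.5 and 88.9. Their log2 fold changes in the authors' deposited table were −1.04 ± 0.30 (SE) and −0.99 ± 0.33 (SE), and the adjusted p were 0.0881 and 0.233, so neither was called. Without each column in turn the log2 ratio of Stag3 lay between −1.92 and −1.04 and that of Smc1b between −2.34 and −1.19; the smallest of both came without negative column 2. Stag3 had 149.9, 119.8 and 59.4 normalised reads against 68.7, 139.4 and 80.6 in blastocysts, with overlap. Tuba3a, a testis tubulin gene with a near-identical copy in Tuba3b, had 17.1, 0 and 0 against 23.5, 26.8 and 20.1 there; its reads could have been split with the copy.

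Among origin licensing and firing genes, classic targets of activator E2Fs, the share with an unadjusted p under 0.05 was near that of all genes. In blastocysts 1 of 18 had an unadjusted p under 0.05, Mcm10, a scaffold of the replication fork, with a log2 fold change of −1.19 ± 0.50 (SE) in the authors' deposited table and an adjusted p of 0.668. The list median was −0.23 in blastocysts, where 14 of 18 were below 0, and −0.01 in ES cells. Of the 13 genes of this list with a start window, 8 held an 8-letter E2F match, and of the 18 such genes for nucleotide and DNA synthesis 6 did, against 2.6% of 27025 genes.

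Of the nucleotide and DNA synthesis genes 4 of 20 had an unadjusted p under 0.05 in blastocysts, all with a negative log2 fold change, against 5.46% of all genes (3.1% negative): Dut, Pcna, Rrm1 and Tk1. Pcna, the sliding clamp of DNA polymerases, had 222.7, 131.9 and 146.3 normalised reads against 311.7, 274.3 and 460.4, with no overlap. The share without overlap, 11.9%, was counted only at means of 20 to 80, below that of Pcna. The Pcna log2 fold change in the authors' deposited table was −1.06 ± 0.42 (SE), with an adjusted p of 0.610 in the Wald test of DESeq2. Dut had 184.2, 101.5 and 148.6 against 405.7, 176.2 and 656.0, and −1.51 ± 0.50 (SE) and an adjusted p of 0.367 in the authors' deposited table. Tk1, thymidine kinase, had 279.8, 211.1 and 297.1 against 505.9, 243.0 and 704.9. For Rrm1, a subunit of ribonucleotide reductase, the authors' deposited table gave −0.95 ± 0.39 (SE). Dut and Tk1 overlap between the sides through negative column 2, as Ccne1 and Cdk1 do. In blastocysts 15 of the 20 log2 fold changes were below 0 with a median of −0.36, against −0.04 over all tested genes. In ES cells 9 of 20 were below 0 with a median of 0.07, and 0 had an unadjusted p under 0.05.

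Apoptosis genes bound by E2F1 had no member with an unadjusted p under 0.05 in either table, with medians of 0.12 in blastocysts and 0.03 in ES cells. Among genes of giant cells and mural trophectoderm, the giant cell hormone genes Prl3d1 and Prl2c2 were listed at 0 in blastocysts and Hand1, a giant cell transcription factor, had reads in 1 column only, and the median of this list, −2.34, rested on 4 genes. Gata2 and Tfap2c, trophoblast transcription factors, had 184.1 and 129.5 normalised counts per kb there, with log2 fold changes of 0.41 and 0.17 in the authors' deposited table. In ES cells Tfap2c had 24.8 and 38.2 normalised reads in the positive columns and 7.61 and 6.76 in the negative columns, with a log2 fold change of 0.91 ± 0.33 (SE) in the authors' deposited table and an adjusted p of 0.387; the list median there was 0.42, over 2 genes.

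The materials carried the markers of their labels. In blastocysts 9 of 10 trophectoderm markers, 10 of 10 pluripotency markers and 8 of 8 primitive endoderm markers had reads, while 7 of 10 fibroblast markers were at 0. The pluripotency sums over 9 solved genes were 2147, 1022 and 936 normalised reads in the positive columns and 2974, 1913 and 3605 in the negative columns, which overlap. Without Dppa3 they were 1887, 1012 and 936 against 2020, 1880 and 2463. Of the 10 pluripotency markers 6 had a log2 fold change below 0 in the authors' deposited table and 4 above it: Tdgf1, Nanog and Pou5f1, with an unadjusted p under 0.05, had −1.75, −1.93 and −1.21, while Sox2, Esrrb, Tfcp2l1, Fgf4 and Zfp42 lay between −0.05 and 0.10. Sox7, a primitive endoderm factor, had 3.27 in that table, but its log2 ratio of recovered reads ran from 2.68 to 6.79 without each column in turn, the highest without negative column 2. None of the markers was called. Trophectoderm markers with an unadjusted p under 0.05 went both ways, with Krt7 and Gata3 higher and Krt8 and Krt18 lower on the positive side. The median log2 fold change was −0.29 for pluripotency, −0.03 for trophectoderm and −0.08 for primitive endoderm markers, and 2.14 for the 3 fibroblast markers with reads. The part of cell type in the E2F and cyclin E differences was not tested.

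In ES cells 9 of 10 pluripotency markers were listed, led by Tdgf1 and Pou5f1 with 711.9 and 706 normalised counts per kb, and 7 of 10 trophectoderm markers, led by Krt8 with 39.8. The medians there were −0.19 for pluripotency, −0.44 for trophectoderm, 0.09 for primitive endoderm and −0.37 for fibroblast markers. All 10 fibroblast markers were listed. Their sums over 9 solved genes were 269 and 237 normalised reads in the positive columns and 280 and 1585 in the negative columns. Negative column 2 stood apart in this sum, although the fibroblast marker Thy1 was lowest there with 14.5 normalised reads. Among the members, that column was the highest of the 4 for E2f2, E2f3, E2f8 and, narrowly, Ccne2. It was not the highest for E2f1, E2f4, E2f5, E2f6, E2f7 and Ccne1. Of the list genes named above, it was the highest for Stag3, Smc1b, Ccnd3 and Cdkn1a, among others. The share of all genes highest in that column was not counted, and the part of feeder RNA in these values was not tested. Against negative column 1 alone the log2 ratio of E2f8 was −0.55 and that of E2f2 −0.46.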

How the data were processed

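RNA sequencing of blastocysts and ES cells was deposited as 1 table of comparison results for each material, with 0 columns of per-sample values. STAR 2.4.0b, featureCounts, Subread 2.0.1, SAMtools, bedtools, DESeq2 1.34.0 and the build GRCm38 are named per the submitters' processing notes, with no role or direction of comparison given. Per the file headers, the signal column is the authors' mean of normalised counts, the log2 columns are their log2 fold change and its standard error, the score column is their statistic, and the p-value columns hold their p-value and adjusted p-value. A gene counted as called at an adjusted p under 0.05 over all genes the authors tested.

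From the means, whole reads per count column were solved by search, with size factors fitted to low means. Of 3956 blastocyst genes with a mean over 1 and up to 6, all had 1 solution, and 95.8% of their read numbers above 0 were even, so pairs may have been counted as 2 reads. Of 3395 with a mean of 20 to 80, 3332 had 1 solution by the mean alone, and 3323 gave back the deposited log2 fold change within 0.001 when refitted. All 1500 ES genes tried had 1 solution. In blastocysts 5 members had more than 1 solution by the mean near the deposited fold change. These were 3 for Ccne1, 8 for E2f1, 11 for E2f6, 226 for E2f4 and 652 for E2f8. The solution whose refit with the deposited error came closest to the deposited fold change was kept. It had to be alone within 0.001 or far closer than the next. For list genes with a mean over 80, even read numbers were tried first, so a solution with odd numbers could be missed. On simulated data the search by the mean alone found the true solution for 99.9% of 1000 blastocyst means. The choice among several solutions and the search of even numbers were not tested. The design had planned the authors' own statistics where no counts per sample were given, and these were used.

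Depth is known from the recovered reads only in part; the authors' means add up to 4608914 in blastocysts and 1513923 in ES cells, and the median standard error of tested genes was 0.92 and 0.31. Reads amplified by PCR and not marked by identifiers can copy 1 molecule, so intervals cover counting error only.

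The members and the 15 gene lists (11 of the pathway, 4 of markers) were chosen with earlier results of these data known. Named genes were the 10 members, list genes with an unadjusted p under 0.05 (at most 5 a list and table) and the 2 highest per kb of a list. The 3 neighbours on each side of E2f2 and the 3 genes most like it were named too. Other list genes (Rb1, Hand1, Prl3d1, Orc1, Sox2, Esrrb, Fgf4, Tfcp2l1, Tuba3b) were named outside these rules, with their values seen. Likeness was limited to means of 20 to 80, where 1 solution could be had. Levels per kb used the longest GENCODE M21 transcript. Alternatives were other thresholds, other sets of genes adjusted over, rescaled statistics, merged exon lengths, ratios of recovered reads and leaving out each column; lists without each column, levels on each side and marker sums without Dppa3 were added after seeing the data. Python 3.11.15, numpy 2.4.6, scipy 1.17.1 and pandas 2.3.3 were used.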

Additional observations from a re-analysis of the deposited data

How the results depend on the processing

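The 1 called member in blastocysts, E2f2, was not called at an adjusted p under 0.01, nor among genes with a mean of at least 50, a set that its own mean of 25.9 leaves it out of, nor with all statistics scaled so that their robust SD was 1, where its adjusted p was 0.124, so the count became 0 in each. It stayed 1 at an adjusted p under 0.1 and when adjusted over every gene with a p-value. In ES cells the count was 0 under all 5 alternatives. The pathway counts of 11 and 7 genes with an unadjusted p under 0.05 became 10 and 5 with a mean of at least 50. With that minimum the median log2 fold change moved to 0.19 for the germline list and 0.29 for the giant cell list in blastocysts and to −0.66 for CDK inhibitors in ES cells, where fewer genes remained. Per merged exon length the rank of no member changed in blastocysts, and that of 3 did in ES cells.

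Leaving out each column in turn, the log2 ratio changed sign for Ccne2, E2f4 and E2f7 in blastocysts and for E2f1 and E2f5 in ES cells, none of them called. The ranges were −0.53 to 1.337, −0.28 to 0.02 and −1.89 to 0.56 in blastocysts, and −0.46 to 0.28 and −0.40 to 0.76 in ES cells, in the same order; the cause was not tested. Counts of list genes lower on the positive side without each column were added after seeing the data, over solved genes. Of the 22 counts of the 11 lists in both tables, 7 turned their majority. In blastocysts pocket proteins and DP partners went from 4 of 5 to 2 without negative column 1, cyclins and kinases from 2 of 5 to 3 without positive column 3, and licensing genes from 8 of 11 to 5 without negative column 3. In ES cells CDK inhibitors went from 6 of 7 to 2 without negative column 1, nucleotide and DNA synthesis genes from 7 of 17 to 12 without positive or negative column 2, apoptosis genes from 4 of 7 to 3 without positive column 2, and cyclins and kinases from 4 of 7 to 3 without any of 3 columns. No paired analysis was possible because the tables have no columns that carry replicate numbers. Standard errors of the members in blastocysts ran from 0.39 for E2f4 to 1.53 for E2f2; what depth alone limits was not tested.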
